A study of Mus musculus with 2 samples.

Results

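Complement and coagulation factors are the plasma proteins with which the liver arms innate defence and blood clotting, and 55 of their genes were followed in sorted mouse hepatocytes. They are 27 complement and 28 coagulation genes, found by gene symbol among 18193 genes on the array. A member counted only through probe sets annotated to it alone, and C1s was found under its current symbol C1s1. Of the 55, 51 had such a probe set, 81 probe sets in all, and 47 exceeded the background floor in at least 1 array.

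The study compared hepatocytes of male FVB mice aged 6 to 8 weeks that were EzrinT567D positive with hepatocytes that were EzrinT567D negative, each on 1 Affymetrix array. All mice had received 10 µg of the PT3EF5α EzrinT567D plasmid and 0.8 µg of pCMV/SB in 2 ml of saline by hydrodynamic tail vein injection, which forces DNA into hepatocytes, so the negative cells come from injected mice too. EzrinT567D is a phosphomimetic form of ezrin, the protein that ties the plasma membrane to cortical actin, and pCMV/SB supplies the Sleeping Beauty transposase. After 1 week the liver was digested with collagenase, and GFP-positive and GFP-negative hepatocytes were sorted by flow cytometry. The growth protocol gives chow for both samples, whereas the descriptions put both at 2 months and name a fast food diet for the positive and chow for the negative sample, so EzrinT567D status and diet cannot be told apart if the description fields hold. The labels do not state how many mice were used, whether cells were pooled, or whether 1 liver gave both fractions.

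Complement works as a cascade: recognition proteins such as mannose-binding lectin activate serine proteases, these cleave C4, C2 and C3, and the terminal components assemble a pore in the target membrane, while soluble and membrane inhibitors protect host cells. Coagulation is a second cascade of serine proteases, several of which need vitamin K-dependent carboxylation, and it ends with thrombin turning fibrinogen into fibrin. Hepatocytes make most of these proteins, and several of them, among them C9, Cfb and fibrinogen, belong to the acute phase response driven by interleukin 6.

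The values are MAS5 signals on a linear scale, with the same trimmed mean in both deposited columns. Differences are given as log2 ratios, positive divided by negative. The probe set with the highest mean signal stood for its gene, and the floor was the 95th percentile of 85 probe sets for odorant, pheromone and taste receptors, at 334.02 in the positive and 275.2 in the negative array. With 1 array in each group there is no replicate error and no test between the groups. The spread between probe sets of a gene serves only as a yardstick for the size of a ratio. Probe sets of a gene are read on the same arrays, so this spread leaves out any error shared by a whole array or sample. It is therefore not the error of a ratio between the groups. In 3131 genes a second probe set also cleared both floors, and its log2 ratio differed from the first by an SD of 0.41. For the 13 members among them this SD was 0.34.

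The cell type labels were checked on marker genes. All 8 hepatocyte markers were far above the floor, and their log2 ratios ran from -0.39 to -0.01 with a median of -0.25. None of the cholangiocyte, neutrophil, lymphocyte and platelet markers with a probe set exceeded the floor. Of 12 Kupffer cell markers 5 exceeded it, 4 lower and 1 (Csf1r) higher in the positive array. All 12, with 7 below the floor, summed to 3122.2 in the positive and 4189.4 in the negative array. Of 10 sinusoidal endothelial markers 7 exceeded the floor, 1 lower, 5 higher and 1 without a direction. All 10 summed to 5063.6 in the positive and 4573.8 in the negative array. Of 9 stellate cell markers, among them the member Colec11, 7 exceeded the floor, 4 lower, 2 higher and 1 without a direction. Their log2 ratios ran from -0.79 (Rgs5) to 0.39 (Lrat), and all 9 summed to 3102.8 in the positive and 3636.9 in the negative array. Of the erythroid markers only Alas2 exceeded the floor, with 733.4 in the positive and 689.6 in the negative array. Markers of lobular position differed strongly. All 10 listed pericentral genes were higher in the positive array, with a median log2 ratio of 1.08. All 10 listed periportal genes above the floor were lower, with a median of -1.30. These lists were chosen with earlier results of these data known, so the even direction within each is partly a matter of choice. Ass1, a urea cycle gene like the listed Arg1 and Asl but not on the list, was at 0.13. Fewer cells of a type and less RNA in each cell cannot be told apart in such samples. The part of lobular position, cell mixture or diet in the differences below was not tested.

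Most complement and coagulation genes read slightly lower in EzrinT567D-positive than in EzrinT567D-negative hepatocytes. Of the 47 genes above the floor, 31 were lower (all genes 48.0%), 14 were higher (all genes 46.3%) and 2 had no direction. Their median log2 ratio was -0.15, a signal 1.11-fold lower, against 0.00 over all 9866 genes above the floor. At least 1.5-fold lower were 3 members, Hgfac, C2 and F7 (all genes 4.11%), and 0 were 1.5-fold higher (all genes 6.2%). No member reached 2-fold in either direction, against 0.598% of all genes lower and 1.15% higher. Just outside the 1.5-fold line lay Cfi, 1.44-fold lower, and just inside lay F7, 1.51-fold lower.

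**Figure D1:**
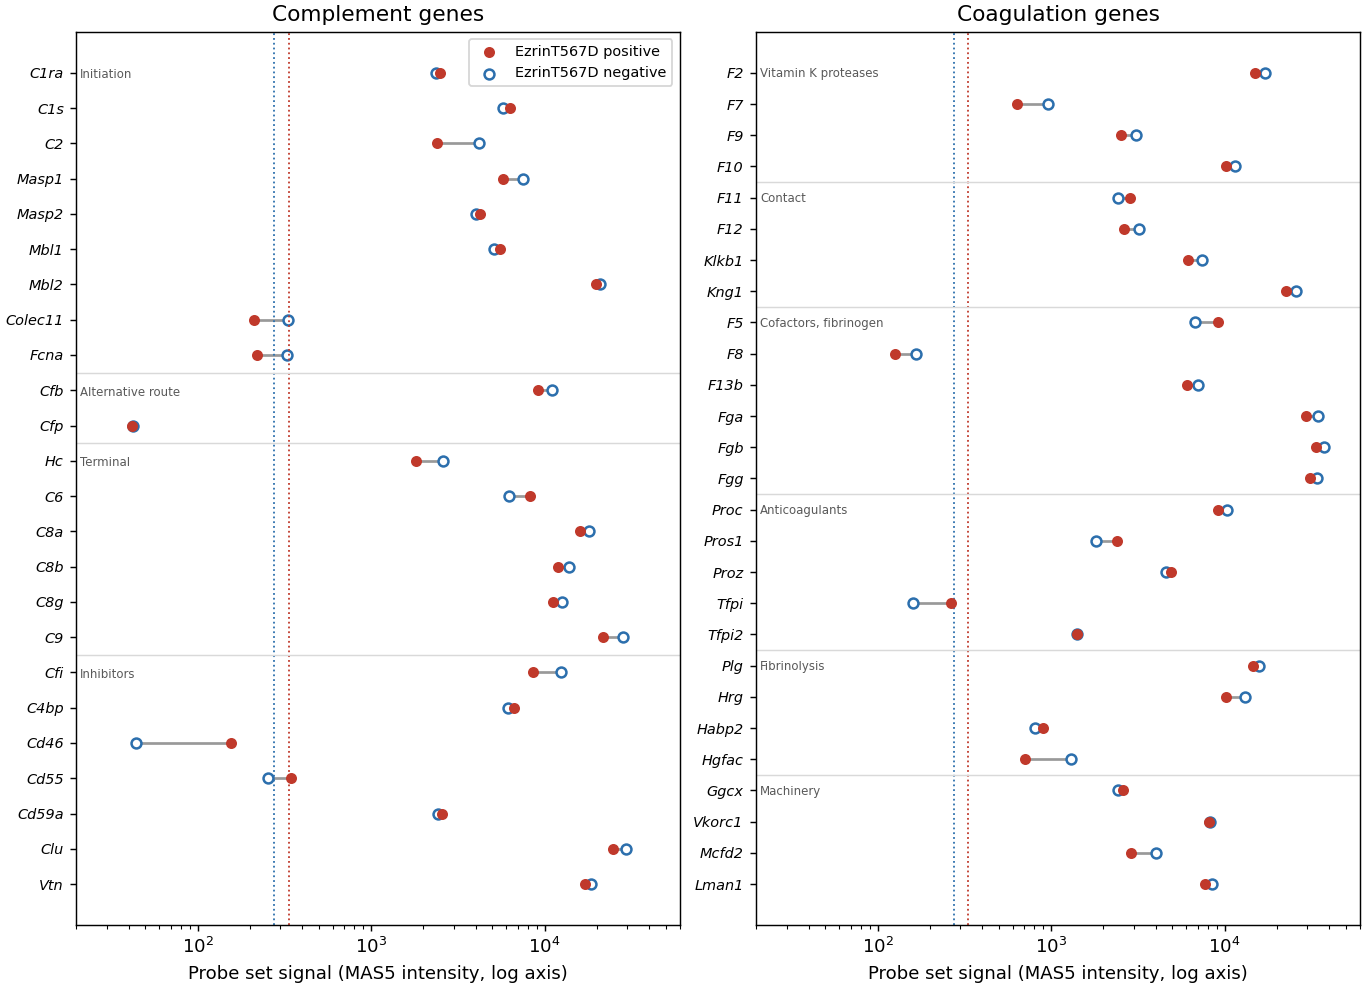
Signals of the 51 complement and coagulation genes with a probe set of their own, on a log axis, with filled points for the EzrinT567D-positive and open points for the EzrinT567D-negative array (1 array each). Dotted vertical lines mark the floors, 334.02 in the positive and 275.2 in the negative array; most filled points lie slightly left of the open ones, and C6, F5 and Pros1 are among the exceptions.

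The size of these differences has to be read against the signal level. Genes with high signals were lower as a class on these arrays: the median log2 ratio was -0.12 over 332 non-member genes with a mean signal over 10000, -0.05 over 3555 such genes between 1000 and 10000, and 0.01 over 5932 up to 1000. Of the 17 members with a mean signal over 10000, all 17 were lower, with a median of -0.19, and 257 of the 332 other genes in that class (77.4%) were lower. Among the 25 members between 1000 and 10000, the split was 13 lower (52%) to 12 higher and the median -0.02. Of the 3555 other genes in that class, 59.2% were lower, so members of this class were not lower more often than other genes. After a loess correction for signal, 15 of the 17 bright members were lower, with a median of -0.07, against 53.6% of the other bright genes with a median of -0.01. Hgfac, C2, F7, Hc and Cfi kept a lower reading under this correction, and F5, C6 and Pros1 a higher one.

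**Figure D2:**
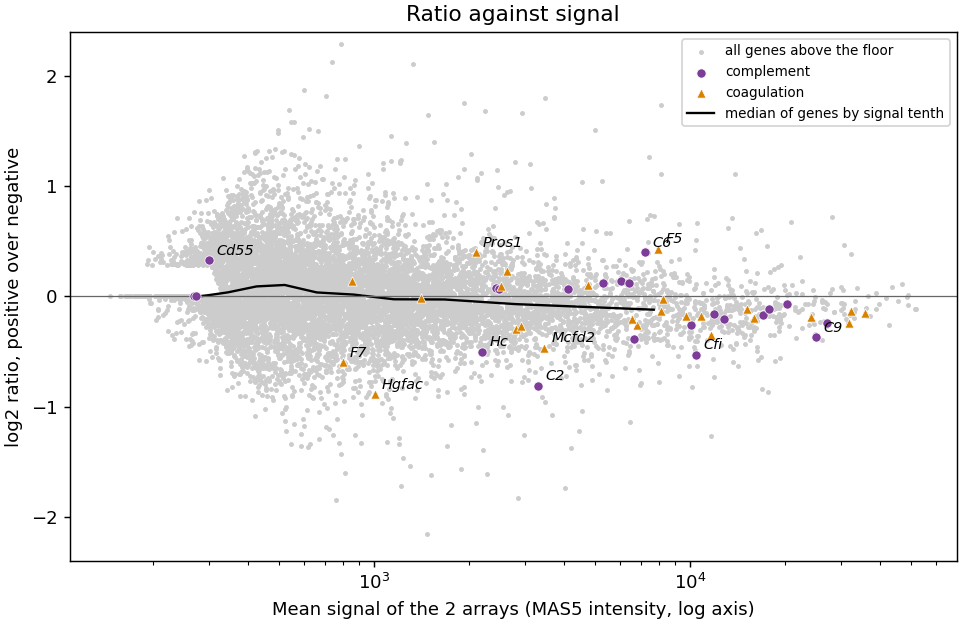
Vertical positions give log2 ratios, positive over negative, and horizontal positions the mean signal of the 2 arrays (log axis) for all 9866 genes above the floor in grey, with complement genes as circles and coagulation genes as triangles. The black line joins medians over 10 equal groups of genes by signal and drops to -0.12 in the brightest group; the 17 members over 10000 all lie below 0.

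The recognition and early protease genes of the classical and lectin routes had no common direction. Of 9 above the floor, 3 were lower, 4 higher and 2 without a direction, with a median of 0.00. That median is the 0 given to the 2 genes without a direction, Colec11 and Fcna, and not a measured ratio. C2, the protease that completes the classical C3 convertase, read 2396.4 in positive and 4207.8 in negative hepatocytes, 1.76-fold lower, a log2 ratio of -0.81 that only 1.27% of all genes went below. Its other probe sets gave log2 ratios of -0.58 and -0.05, and C2 no longer reached 1.5-fold once probe sets that may bind several transcripts were left out (log2 ratio -0.58). Masp1, which encodes lectin-route proteases in several splice forms, read 5763.6 in positive and 7547.8 in negative cells, a log2 ratio of -0.39. Its other 3 probe sets above the floor pointed the other way, up to 0.33, so the direction for Masp1 depends on the probe set.

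The proteases that start the classical route read higher in the positive array by small amounts. C1s read 6321.3 in positive and 5742.7 in negative hepatocytes, a log2 ratio of 0.14, and its partner C1ra had a log2 ratio of 0.07. Mannose-binding lectins, the sugar-sensing starters of the lectin route, split in sign: Mbl1 read 5540.4 in positive and 5105.4 in negative cells, a log2 ratio of 0.12, and Mbl2 was at -0.07. Masp2, the protease that cleaves C4 and C2, was at 0.07, with its other probe set at -0.23. These differences are smaller than the spread between probe sets of a gene, and so are most others among the members. Only Hgfac, C2, F7, Cfi, Hc, Mcfd2 and F5 had a ratio beyond that SD of 0.41. A ratio beyond it can still come from error shared by a whole array or sample, which that SD leaves out. Fcna, a ficolin that macrophages make, read 219.6 in positive and 328.6 in negative cells, and Colec11, a collectin, read 210.1 in positive and 330.4 in negative cells. Both exceeded the floor only in the negative array, and the higher floor of the positive array leaves no bound on their ratio. C4b had no probe set of its own and is not analysed here.

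Of the alternative route, Cfb alone could be followed. Cfb, the protease of the alternative C3 convertase, read 9182.2 in positive and 11008.2 in negative hepatocytes, a log2 ratio of -0.26. Properdin (Cfp), which leukocytes make, was below the floor in both arrays. C3, on which all routes meet, and Cfd had no probe set of their own and are not analysed here.

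The terminal components, which form the membrane pore, were lower in 5 of 6 genes (all genes 48.0%), with a median log2 ratio of -0.19. Of the 5, C8a, C8b, C8g and C9 had a mean signal over 10000, where 77.4% of non-member genes were lower. Hc, the gene of complement C5, read 1824.7 in positive and 2586.8 in negative hepatocytes, 1.42-fold lower. FVB mice carry a frameshift allele of Hc and lack the circulating protein, so this is a difference in transcript only. C9, the pore-forming unit and an acute phase protein, read 21830.3 in positive and 28221.4 in negative cells, a log2 ratio of -0.37. The 3 genes of the C8 complex were close to each other: C8b read 11898.4 in positive and 13740.6 in negative cells, a log2 ratio of -0.21, with C8a at -0.17 and C8g at -0.16, a span of 0.05. C6 went the other way, with 8192.7 in positive and 6211.4 in negative cells, 1.32-fold higher, and 86.7% of all genes had a lower ratio.

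Complement inhibitors were divided evenly, 3 lower and 3 higher of 6 above the floor, with a median log2 ratio of -0.02. The 16 activators and effectors had a median of -0.12, with 9 lower (all genes 48.0%), 5 higher and 2 without a direction. The soluble inhibitor Cfi, the protease that inactivates C3b and C4b, read 8576.3 in positive and 12385.4 in negative hepatocytes, 1.44-fold lower. Its cofactor C4bp read 6663.8 in positive and 6137.6 in negative cells, a log2 ratio of 0.12. Clusterin (Clu), which holds terminal complexes in solution, read 24870.9 in positive and 29412.8 in negative cells, and its 4 probe sets were all lower, with log2 ratios from -0.33 to -0.08. Vitronectin (Vtn), with the same task, was at -0.11 and 0.05 in its 2 probe sets. Of the membrane inhibitors among the members, Cd59a and Cd55 read higher. Cd59a, which blocks C9, was at 0.07 and 0.38 in its 2 probe sets. Cd55, which speeds convertase decay, read 345.9 in positive and 253.8 in negative cells. Cd55 was thus at least 1.26-fold higher, since the negative value is below the floor. Membrane inhibitors outside the member list did not share a direction: Susd4 was at 1.36 and Cr1l at -0.19. Cd46, which in the mouse is mainly a testis gene, was below the floor in both arrays. The median of the inhibitors changed sign under 4 alternatives, and the gap between activators and inhibitors was not tested, since each group has 1 array.

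**Figure D3:**
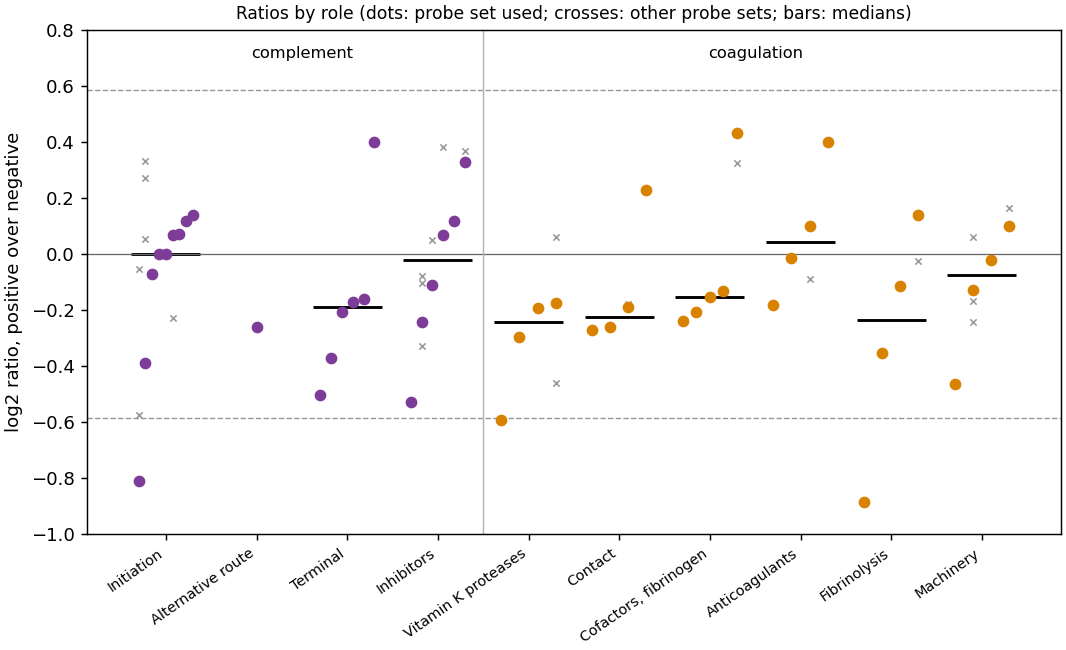
Genes above the floor are grouped by role and plotted by log2 ratio, positive over negative, with complement in purple and coagulation in orange. Dots give the probe set that stands for the gene, crosses its other probe sets above the floor, black bars the group medians and dashed lines 1.5-fold; only Hgfac, C2 and F7 lie beyond a dashed line, all lower.

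Among the coagulation genes 19 of 25 were lower (all genes 48.0%) and 6 higher, with a median log2 ratio of -0.18. Among the complement genes 12 of 22 were lower (all genes 48.0%), 8 higher and 2 without a direction, with a median of -0.09. The gap between the lists was not tested, and it depended on the setting: with only genes above the floor in both arrays the complement median was -0.16, and after loess correction the medians were -0.07 for coagulation and -0.06 for complement. The 13 procoagulant factors had a median of -0.19, with 11 lower (all genes 48.0%) and 2 higher. This median was -0.08 after loess correction and -0.12 after quantile normalization. All 4 vitamin K-dependent procoagulant proteases were lower (all genes 48.0%). Of these, F2 and F10 had a mean signal over 10000, where 77.4% of non-member genes were lower. F7, which starts clotting when tissue factor is exposed, read 634.7 in positive and 958.7 in negative hepatocytes, a log2 ratio of -0.60. This was its only probe set, so no second reading exists. F9, the protein missing in haemophilia B, read 2523.5 in positive and 3099.2 in negative cells, a log2 ratio of -0.30. Prothrombin (F2), the precursor of thrombin, read 14925.5 in positive and 17063.0 in negative cells, a log2 ratio of -0.19. F10, which activates prothrombin, read 10161.2 in positive and 11480.3 in negative cells, a log2 ratio of -0.18. Its other probe sets gave -0.46 and 0.06, so the direction for F10 also depends on the probe set.

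The contact and intrinsic genes were lower in 3 of 4 (all genes 48.0%). F12, the contact-activated protease, read 2644.9 in positive and 3192.5 in negative hepatocytes, a log2 ratio of -0.27. Plasma prekallikrein (Klkb1), which activates F12 in turn, read 6171.0 in positive and 7387.3 in negative cells, a log2 ratio of -0.26. Kininogen (Kng1), the source of bradykinin, read 22578.8 in positive and 25743.8 in negative cells, and its 2 probe sets gave -0.19 and -0.18. The exception was F11, which F12 and thrombin activate and which read 2849.6 in positive and 2429.9 in negative cells, a log2 ratio of 0.23. F11 and Klkb1 are paralogs that lie next to each other on chromosome 8, and their ratios differed by 0.49. Over the 7 neighbouring pairs of members the median difference was 0.28, against 0.31 over 5275 neighbouring pairs of genes above the floor.

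Factor V (F5), the cofactor of the prothrombin-cleaving complex, had the highest ratio of all members. It read 9128.3 in positive and 6767.6 in negative hepatocytes, 1.35-fold higher, and its second probe set, at 0.33, also read higher. F8, which endothelial cells make, was below the floor in both arrays. F13b, the carrier subunit of the fibrin crosslinker, read 6087.6 in positive and 7022.0 in negative cells, a log2 ratio of -0.21.

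The fibrinogen chains, which assemble into 1 protein and are encoded by neighbouring genes on chromosome 3, were lower together by small amounts. Fga read 29301.7 in positive and 34599.9 in negative hepatocytes, Fgb read 33857.9 in positive and 37623.2 in negative cells, and Fgg read 30928.0 in positive and 33887.4 in negative cells. Their log2 ratios were -0.24, -0.15 and -0.13, a span of 0.11, beside a median of -0.12 and a lower quartile of -0.24 over the other genes in their signal class. Because the chains form 1 protein and had like ratios, the 200 bases before each start are given from RefSeq (GRCm38.p6), 5′ to 3′ on the strand of the gene. Capitals mark CTGGGAA, the core of an interleukin 6 response element, TTNNGCAA, a pattern of C/EBP sites, and GTTAATNAT, most of the palindrome that HNF1 binds, each searched on both strands.
Fga, chr3:83025953-83026152, plus strand: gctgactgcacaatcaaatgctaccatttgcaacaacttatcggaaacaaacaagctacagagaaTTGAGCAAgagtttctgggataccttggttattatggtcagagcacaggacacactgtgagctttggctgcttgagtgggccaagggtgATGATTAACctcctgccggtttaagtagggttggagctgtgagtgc
Fgb, chr3:83049864-83050063, minus strand: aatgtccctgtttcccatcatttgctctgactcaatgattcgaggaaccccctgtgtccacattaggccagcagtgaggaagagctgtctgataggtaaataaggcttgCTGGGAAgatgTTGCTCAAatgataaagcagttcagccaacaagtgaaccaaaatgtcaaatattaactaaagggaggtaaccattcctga
Fgg, chr3:83007524-83007723, plus strand: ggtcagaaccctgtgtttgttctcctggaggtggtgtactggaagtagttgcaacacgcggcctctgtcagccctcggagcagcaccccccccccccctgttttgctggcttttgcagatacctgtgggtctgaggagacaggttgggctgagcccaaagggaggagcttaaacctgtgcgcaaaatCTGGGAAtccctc

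Fgb held the first pattern and the second, Fga the second and the third, and Fgg the first alone, so no pattern was found in all 3 stretches. Over the 250 bases before the start of the 45 members with a promoter in the table, CTGGGAA was found in 8 members (17.8%, all genes 10.4%) and TTNNGCAA in 11 (24.4%, all genes 10.8%). GTTAATNAT was found in 5 (11.1%, all genes 0.866%). HNF1 is a transcription factor of hepatocytes, and these 5 sites lay between 38 and 77 bases before the start. They are shown with 10 bases on each side, with the pattern or its complement in capitals.
C4bp, chr1:130661664-130661692, minus strand: gctctagtctGTTAATCATtcaccgggac
F13b, chr1:139501643-139501671, plus strand: agacattgtaATTATTAACttgttttgtc
Fga, chr3:83026097-83026125, plus strand: gccaagggtgATGATTAACctcctgccgg
Habp2, chr19:56287836-56287864, plus strand: ttgatgcctaGTTAATAATttgcatcctc
Hc, chr2:35061471-35061499, minus strand: tctgacattaATAATTAACcggagaacta

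The 5 genes with this pattern did not share a direction on the arrays: C4bp was at 0.12 and Habp2 at 0.14, whereas F13b was at -0.21, Fga at -0.24 and Hc at -0.50. A match describes the letters in these windows and does not show that a factor binds there.

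Of the anticoagulants, which limit clotting, 4 exceeded the floor, 2 lower and 2 higher, with a median log2 ratio of 0.04. Protein S (Pros1), the cofactor of activated protein C, read 2388.5 in positive and 1809.3 in negative hepatocytes, 1.32-fold higher. Protein C itself (Proc), which cleaves activated factor V, read 9127.3 in positive and 10354.6 in negative cells, a log2 ratio of -0.18. Proz, the cofactor through which a serpin inhibits factor Xa, read 4915.8 in positive and 4587.8 in negative cells, and its 2 probe sets gave 0.10 and -0.09. Tfpi2, a matrix-bound protease inhibitor, was nearly level, with 1401.6 in positive and 1417.0 in negative cells, a log2 ratio of -0.02. Tfpi, which endothelial cells make, was below the floor in both arrays. With the mean over probe sets the median of the anticoagulants was -0.0049, so its sign depends on the probe sets used.

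Among the plasma proteins around fibrinolysis, Hgfac stood lowest of all members. Hgfac, the serine protease that activates hepatocyte growth factor, read 704.6 in positive and 1304.0 in negative hepatocytes, 1.85-fold lower, and only 0.892% of all genes had a lower ratio. It has 1 probe set, so no second reading exists. Histidine-rich glycoprotein (Hrg) read 10244.7 in positive and 13093.3 in negative cells, a log2 ratio of -0.35, and plasminogen (Plg), the precursor of plasmin, read 14573.3 in positive and 15783.7 in negative cells, a log2 ratio of -0.12. Habp2, a protease that can activate factor VII, read 893.4 in positive and 812.1 in negative cells, a log2 ratio of 0.14, with its other probe set at -0.02. Cpb2 had no probe set of its own and is not analysed here.

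The genes that carboxylate and export clotting factors had a median log2 ratio of -0.07, with 3 of 4 lower (all genes 48.0%). Ggcx, the vitamin K-dependent carboxylase, read 2603.9 in positive and 2431.2 in negative hepatocytes, and its 2 probe sets gave 0.10 and 0.16. Vkorc1, which recycles vitamin K and is the target of warfarin, read 8142.5 in positive and 8255.6 in negative cells, a log2 ratio of -0.02. Mcfd2 and Lman1 form the receptor that carries factors V and VIII out of the endoplasmic reticulum. Mcfd2 read 2904.2 in positive and 4007.6 in negative hepatocytes, 1.38-fold lower, whereas Lman1 read 7743.5 in positive and 8467.4 in negative cells, a log2 ratio of -0.13, with its probe sets between -0.24 and 0.06. The cargo F5 read higher, at 0.43, and the receptor subunit Mcfd2 lower, at -0.46.

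Probe sets of a member did not always give the same direction. In 14 members 2 or more probe sets exceeded the floor, and of these 7 had probe sets on both sides of 0, and the widest spans were 0.76 for C2 and 0.72 for Masp1. The 7 with 1 direction were C2, Clu, Kng1, F5, Cd59a, Cd55 and Ggcx.

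Other genes of the same pathways included a few with larger differences. Of 45 such genes, 20 exceeded the floor, 11 of them lower (all genes 48.0%), 7 higher and 2 without a direction, with a median log2 ratio of -0.14. The serpins that inhibit clotting proteases read lower by small amounts: antithrombin (Serpinc1) was at -0.24, heparin cofactor II (Serpind1) at -0.26 and the protein Z-dependent inhibitor Serpina10 at -0.26. The C1 inhibitor Serping1 was at -0.12. Susd4, a membrane inhibitor of complement, read 1290.7 in positive and 501.1 in negative hepatocytes, 2.58-fold higher. The urokinase receptor Plaur was at least 2.17-fold higher, with 596.1 in positive and 227.0, below the floor, in negative cells. C1qb, a subunit of the C1q recognition protein made by macrophages, read 765.8 in positive and 1214.2 in negative cells, 1.59-fold lower, and it is also one of the Kupffer cell markers. The complement receptor gene Cr2 read 393.3 in positive and 274.8, below the floor, in negative cells, at least 1.43-fold higher. The thrombin receptor F2r read 455.1 in positive and 348.6 in negative cells, a log2 ratio of 0.38, and the factor H-related gene Cfhr2 read 2409.8 in positive and 3057.7 in negative cells, a log2 ratio of -0.34.

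Acute phase genes outside these pathways were also mostly lower: 15 of 17 above the floor were lower, with a median log2 ratio of -0.43, against 48.0% lower over all genes and 77.4% over non-member genes with a mean signal over 10000. The largest difference among them ran the other way: Saa3, a serum amyloid A gene, read 778.8 in positive and 317.4 in negative cells, 2.45-fold higher. For comparison, 10 members above the floor were set aside as a chosen acute phase list: C9, Cfb, C4bp, Fga, Fgb, Fgg, Plg, Hrg, Mbl2 and F5. Not all of these are established acute phase genes. Without them, 23 of 37 remaining members were lower (all genes 48.0%), and the median of the complement activators and effectors was 0.00. This 0.00 is the value given to Colec11 and Fcna, which had no direction, and not a measured ratio. The coagulation median stayed at -0.18 without the genes set aside.

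**Figure D4:**
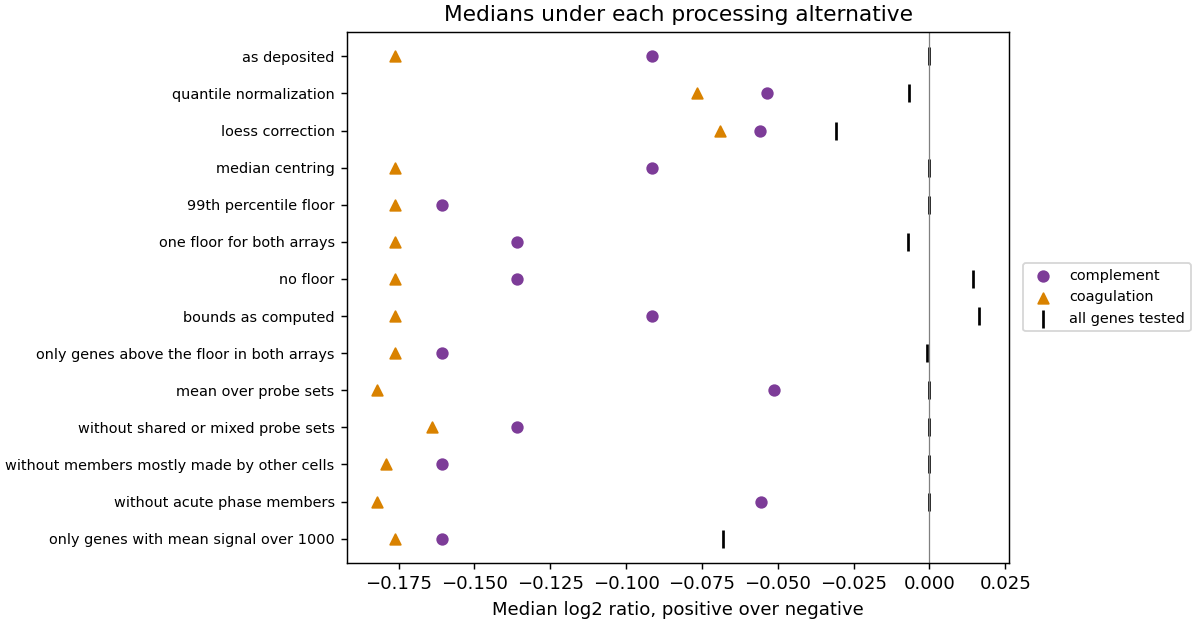
Median log2 ratio, positive over negative, for complement genes (circles), coagulation genes (triangles) and all genes tested (bars), under the settings as deposited and 13 alternatives. Both lists stay below 0 in each, and both come nearest to the median of all genes after the loess correction.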

How the data were processed

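RNA of 2 samples was measured on Affymetrix Mouse Genome arrays from 6 µg of total RNA, per the labels' protocols. The deposited intensity values come from MAS5, per the submitters' processing notes, without a version. The trimmed mean (2% from each end) was 500.003 in both deposited columns. Of 45101 probe sets, 34945 had 1 gene symbol and 932 several; the latter, those without a symbol and array controls were left out.

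From these values log2 ratios (positive over negative) were computed in Python 3.11.15 with numpy 2.4.6 and pandas 2.3.3. Where 1 array was below its floor, the dim value was raised to the floor, and a bound with the wrong sign was replaced by 0 (563 genes). Genes were counted at 1.5-fold and 2-fold. No test was possible with 1 array in each group. The number of arrays limits the precision. The calculation was tested on simulated data, with 2-fold changes in genes with a signal over 1000 and no trend with signal. That test checks the arithmetic only and does not cover changed genes near the floor. The named genes are all members; both signals are given for those at least 1.5-fold apart, for the 4 with the largest absolute ratios in each role group, and for the 6 largest of the other pathway genes. Members and lists were chosen with earlier results of these data known. Promoter patterns were chosen from general knowledge of liver promoters after the data were seen. Alternatives were quantile and loess normalization (span 0.4, statsmodels 0.14.6), median centring, other floors and bounds, other choices of probe set and reduced member lists.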

Additional observations from a re-analysis of the deposited data

How the results depend on the processing

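No paired analysis was possible because each group holds 1 array, and no replicate could be left out for the same reason. Quantile normalization moved the median log2 ratio of all members to -0.072 and of coagulation members to -0.077, and the loess correction moved them to -0.059 and -0.069. The median of complement inhibitors turned positive after quantile normalization (0.057) and loess (0.037), without a floor (0.069) and with the mean over probe sets (0.044). The median of anticoagulants was -0.0049 with the mean over probe sets. Without the members on the chosen acute phase list the median of complement activators and effectors was 0, the value given to Colec11 and Fcna. Without a floor 2 members were at least 1.5-fold higher and 1 at least 2-fold. The median of procoagulant factors was -0.081 after loess and -0.12 after quantile normalization. A median was taken as changed when it moved by more than the SD of 0.41 between probe sets divided by the square root of the number of genes, so short lists had more room, and a count when it moved by over 1.5 times. By these limits 157 other comparisons with an alternative were unchanged. They include the procoagulant median, although it went from -0.19 to -0.081 after loess. They also include all those with median centring, which could change nothing since the median over all genes was 0. The number therefore does not measure how stable the results are. One alternative, only genes with a mean signal over 1000, was chosen after seeing the data; there 30 of 42 members were lower, against 60.9% of all such genes. Signals near the floor limit Cd55, Fcna and Colec11.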
